A study of Mus musculus with 8 samples.

Results

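Smooth muscle cells shorten by sliding actin filaments over a smooth muscle myosin, and the genes of that machinery mark vessel walls and the muscle coats of hollow organs and ducts. Here 10 such genes, Acta2, Actg2, Myh11, Tagln, Cnn1, Lmod1, Des, Smtn, Synpo2 and Myocd, were followed through epididymal white adipose tissue (eWAT), the fat pad attached to the epididymis, and liver of Crtc1 knockout mice. They were chosen by name, as genes known for smooth muscle contraction, and each of the 10 symbols matched a row among the 19348 genes of the count table. In the eWAT libraries labelled Crtc1-/-, Actg2, the enteric smooth muscle actin, fell 110-fold and Myh11, the smooth muscle myosin heavy chain, fell 7.35-fold, while Acta2, the vascular smooth muscle actin, did not pass the test. Actg2 and Myh11 passed narrowly (adjusted p = 0.0451 and 0.0452, edgeR). The eWAT libraries labelled Crtc1+/+ held 8.07% and 9.47% of their counts in 22 genes of the epididymis epithelium. Tissue composition and genotype therefore cannot be told apart in eWAT. In liver, where all members were scarce, none of the 7 members that could be tested passed an adjusted p of 0.05.

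The study generated a whole-body Crtc1-/- line with the CRISPR/Cas9 system, guiding the cut to exons 2 and 4 of Crtc1, a coactivator of the transcription factor CREB. RNA was sequenced from liver and eWAT of male C57BL/6 mice, Crtc1-/- or Crtc1+/+, aged 12 weeks, fed a normal diet and fasted for 16 h before sacrifice. Each of the 4 groups had 2 libraries, from separate mice, and the 8 libraries held between 16560085 and 19721481 counts. By the study's methods, 2 mice of each genotype gave both liver and eWAT, but the labels do not say which liver and eWAT libraries came from 1 mouse.

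In vascular and visceral muscle, myosin light chain kinase turns on Myh11 filaments when calcium enters the cell, and a phosphatase turns them off. Calponin (Cnn1), transgelin (Tagln), leiomodin (Lmod1), smoothelin (Smtn), synaptopodin 2 (Synpo2) and desmin (Des) bind or brace the filaments. Transcription of most of these genes is driven by SRF with its cofactor myocardin (Myocd) through a DNA element named the CArG box. In fat, vessel walls carry smooth muscle, whereas the healthy hepatic lobule has little of it apart from its portal vessels.

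Some facts of the libraries come before the results. Crtc1, the targeted gene, read at 36.9 and 36.9 CPM (scaled by the total of each library) in the eWAT libraries labelled Crtc1+/+ and at 57.6 and 27.5 CPM in the eWAT libraries labelled Crtc1-/-. In liver it read at 11.6 and 9.61 CPM against 22.1 and 18.6 CPM, so its counts were not lower in libraries labelled Crtc1-/-. The counts are summed over the whole gene, so they do not check a deletion of part of it, and the genotypes below are those of the labels. The eWAT libraries labelled Crtc1+/+ stood apart in their tissue markers. A list of 22 genes of the epididymis epithelium, led by Gpx5, made up 8.07% and 9.47% of their counts, against 0.00373% and 0.00134% in the eWAT libraries labelled Crtc1-/-. A list of 10 adipocyte genes, with Fabp4 and Cidec among them, summed to 2489 and 3763 CPM in the eWAT libraries labelled Crtc1+/+ and to 44440 and 20420 CPM in the eWAT libraries labelled Crtc1-/-. The second eWAT library labelled Crtc1-/- also held 10.4% of its counts in 12 hepatocyte genes such as Alb, against 0.126% to 0.639% in the other eWAT libraries. As both libraries of the Crtc1+/+ group carry the epididymis genes, tissue composition and genotype cannot be told apart in eWAT.

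**Figure D1:**
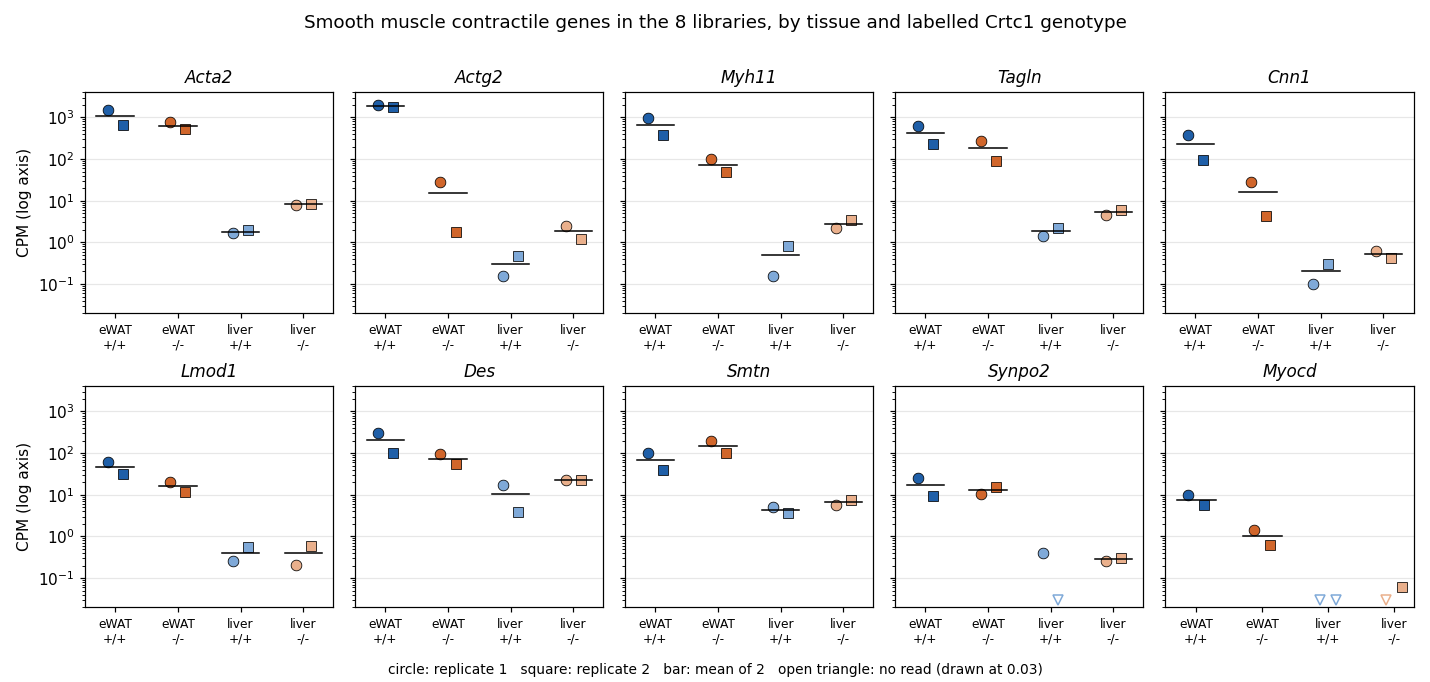
Levels of the 10 smooth muscle contractile genes, in CPM on a log axis, in each of the 8 libraries, by tissue and labelled Crtc1 genotype; bars are means of 2 libraries, drawn where both had reads, and open triangles are libraries with no read. Actg2 stands at 1938 and 1825 CPM in the eWAT libraries labelled Crtc1+/+ and at 28.0 and 1.815 CPM in the eWAT libraries labelled Crtc1-/-, while the Smtn values run the other way.

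Acta2 lies on chromosome 19 (build GRCm38), from 34240336 to 34255585 on the minus strand, and encodes the alpha actin of vascular smooth muscle. In eWAT it read at 1494 and 651 CPM in libraries labelled Crtc1+/+ (1073 ± 596 on average, SD, n = 2), compared with 756 and 513 CPM in libraries labelled Crtc1-/- (634 ± 172 on average, SD, n = 2). The groups overlapped, with the first library labelled Crtc1-/- above the second labelled Crtc1+/+. The log2 fold change was -0.45 (SE 0.51) and did not pass the test (adjusted p = 0.558, edgeR's quasi-likelihood test with Benjamini-Hochberg adjustment), and without the first Crtc1+/+ library its sign turned to 0.23.

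Actg2, on chromosome 6 from 83512909 to 83536251 on the minus strand, encodes the gamma actin of enteric smooth muscle. It read at 1938 and 1825 CPM in the eWAT libraries labelled Crtc1+/+ (1881 ± 79.8 on average, SD, n = 2), which agreed closely, and at 28.0 and 1.815 CPM in the eWAT libraries labelled Crtc1-/- (14.9 ± 18.5 on average, SD, n = 2). The groups were far from overlapping, and the libraries labelled Crtc1-/- also lay far from each other. The log2 fold change of -6.78 (SE 1.41) passed the test (adjusted p = 0.0451, edgeR's quasi-likelihood test). Of the 15391 genes tested in eWAT, 5.54% were called lower in this way and 6.65% higher, and among the 10 members 2 were lower, Actg2 and Myh11, and 0 higher. At an unadjusted p under 0.05 the members numbered 5 lower and 1 higher, beside 17.1% and 16.2% of all genes, and DESeq2 called 6, of which 1 was higher, beside 30.0% of all genes in either direction.

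These actins are close relatives, and reads could in principle be misassigned between them. Their coding sequences were identical at 952 of 1128 aligned bases (84.4%), yet of 1082 windows of 50 bases in Acta2 none was shared with Actg2, and 7 were shared with the cytoskeletal actin Actg1. All counts of both genes were whole numbers in the 8 libraries.

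Per transcript length, the order of the actins was opposite in the groups. In FPKM (fragments scaled to gene length and library size), which allows levels of different genes to be compared, Actg2 exceeded Acta2 in the eWAT libraries labelled Crtc1+/+, with ratios of 2.69 and 5.83. In eWAT labelled Crtc1-/- the ratios of Actg2 to Acta2 were 0.0758 and 0.00716. The groups thus lay on opposite sides of 1, and the log2 ratios differed by -7.41 between the groups. An exact two-sided permutation test gave p = 0.333 for 2 against 2 libraries, the smallest value that such a design allows. In liver the ratio was 0.188 and 0.5 in libraries labelled Crtc1+/+ and 0.642 and 0.297 in libraries labelled Crtc1-/-, so the groups overlapped, and the log2 ratios differed by 0.51 (exact permutation p = 0.667).

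**Figure D2:**
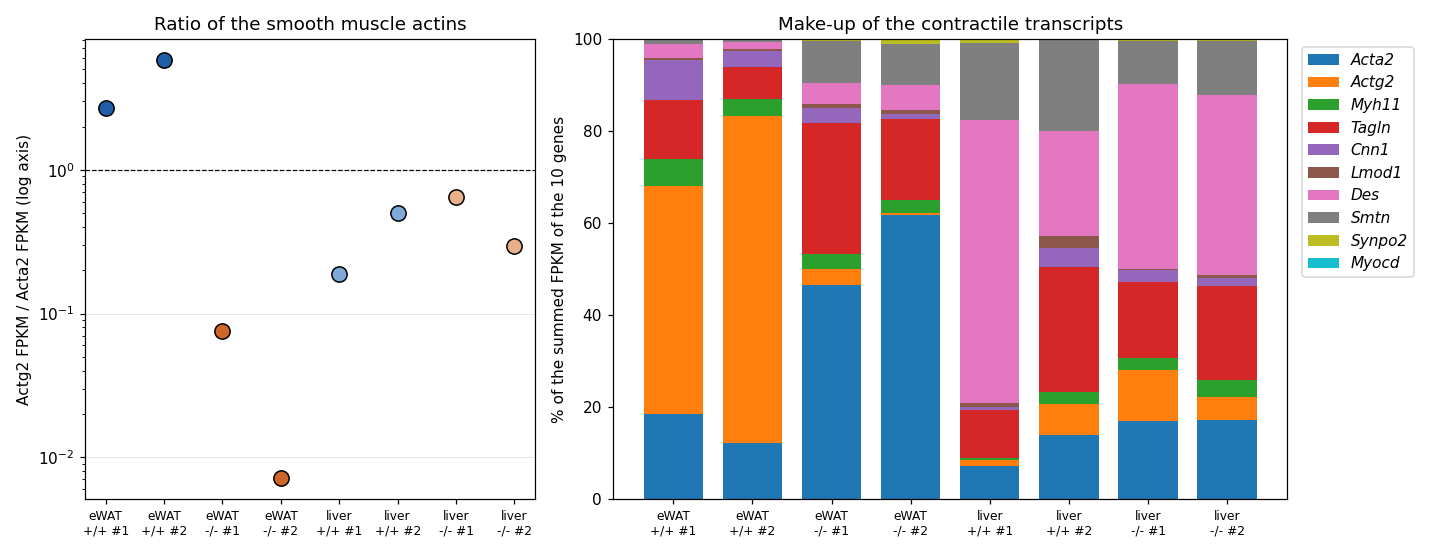
Left, ratio of Actg2 to Acta2 FPKM on a log axis in each library, with a dashed line at equal levels. Right, share of each member in the summed FPKM of the 10 genes, in percent; Actg2 holds 49.6% and 71.1% in the eWAT libraries labelled Crtc1+/+ against 3.52% and 0.441% in the eWAT libraries labelled Crtc1-/-.

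Myh11, the myosin heavy chain that distinguishes smooth muscle from other contractile cells, lies on chromosome 16 from 14194527 to 14292188 on the minus strand. It read at 949 and 374 CPM in the eWAT libraries labelled Crtc1+/+ (661 ± 406 on average, SD, n = 2), compared with 99.2 and 48.7 CPM in the eWAT libraries labelled Crtc1-/- (73.9 ± 35.7 on average, SD, n = 2). Both libraries labelled Crtc1-/- were below both labelled Crtc1+/+. The log2 fold change of -2.88 (SE 0.60) passed the test (adjusted p = 0.0452, edgeR's quasi-likelihood test).

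With either eWAT library labelled Crtc1+/+ left out, edgeR called 0 genes of the whole table, and both calls were lost with it while the folds stayed large. Without the first such library the log2 fold change was -6.84 for Actg2 (adjusted p = 0.18, edgeR) and -2.105 for Myh11 (0.161), and without the second it was -6.77 (0.27) and -3.36 (0.252). Without the first library labelled Crtc1-/- the log2 fold change was -9.56 for Actg2 and -3.295 for Myh11. Without the second, which held the hepatocyte genes, it was -5.92 for Actg2 and -2.55 for Myh11. With the epididymis and hepatocyte genes removed from the table before scaling, the log2 fold changes were -6.81 for Actg2 and -2.82 for Myh11 (adjusted p = 0.0457 and 0.0404 by edgeR). Between the groups both genes were high where the epididymis list was high. In the libraries labelled Crtc1+/+ the list read at 80750 and 94670 CPM, Actg2 at 1938 and 1825 CPM and Myh11 at 949 and 374 CPM. The part of that list in the result was not tested. In bulk tissue, fewer smooth muscle cells and less RNA per cell cannot be told apart.

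The actin- and myosin-binding members gave a mixed picture. Cnn1, on chromosome 9 from 22099221 to 22109221 on the plus strand, encodes calponin, which restrains actomyosin. It read at 376 and 94.6 CPM in the eWAT libraries labelled Crtc1+/+ and at 28.2 and 4.25 CPM in the eWAT libraries labelled Crtc1-/-. The groups did not overlap, but libraries of each group differed several-fold, and the log2 fold change of -3.63 (SE 1.08) did not pass the test (adjusted p = 0.0925, edgeR). With 1 library left out it ran from -5.31 (without the first labelled Crtc1-/-) to -2.41 (without the first labelled Crtc1+/+).

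Tagln, on chromosome 9 from 45929628 to 45936058 on the minus strand, encodes an actin-binding calponin relative used as an early marker of smooth muscle. It read at 613 and 226 CPM in the eWAT libraries labelled Crtc1+/+ and at 279 and 89.5 CPM in the eWAT libraries labelled Crtc1-/-. The groups overlapped, and the log2 fold change of -0.93 (SE 0.68) did not pass the test (adjusted p = 0.373, edgeR). With 1 library left out it ran from -1.76 to -0.11. Tagln shares 108 exonic bases with Pcsk7 and 1241 with the antisense gene Gm48529, both on the opposite strand, and its counts were not whole in 8 of 8 libraries, unlike those of the other members, so its level is less certain.

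Lmod1, on chromosome 1 from 135324813 to 135368065 on the plus strand, encodes a leiomodin that nucleates actin filaments. It read at 62.1 and 31.1 CPM in the eWAT libraries labelled Crtc1+/+ and at 20.4 and 11.9 CPM in the eWAT libraries labelled Crtc1-/-. Both libraries labelled Crtc1-/- were lower, and the log2 fold change of -1.24 (SE 0.45) did not pass the test (adjusted p = 0.135, edgeR).

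Smtn, on chromosome 11 from 3517522 to 3539292 on the minus strand, encodes smoothelin, a protein of contractile smooth muscle that associates with actin stress fibres. It was the exception among the members, at 98.5 and 40.4 CPM in the eWAT libraries labelled Crtc1+/+ and at 197 and 101.0 CPM in the eWAT libraries labelled Crtc1-/-. Both libraries labelled Crtc1-/- lay above both labelled Crtc1+/+, by a narrow margin between the nearest pair. Its log2 fold change of 1.39 (SE 0.52) did not pass the test (adjusted p = 0.141, edgeR). Within the summed FPKM of the 10 members, Smtn held 0.949% and 0.586% in the eWAT libraries labelled Crtc1+/+ and 9.13% and 9.03% in the eWAT libraries labelled Crtc1-/-. Actg2 was the largest part of that sum in the former, so the share moved with the sum as well as with Smtn, whose own mean was 22.4 and 46.8 FPKM. Smtn shares 714 exonic bases with Gm11946, annotated on the opposite strand and not a row of the count table, and whether the counting used strand is not given in the sources used here.

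Synpo2, on chromosome 3 from 123076519 to 123236168 on the minus strand, encodes an actin-bundling protein of the Z-disc and dense bodies. It read at 25.2 and 9.25 CPM in the eWAT libraries labelled Crtc1+/+ and at 10.7 and 15.0 CPM in the eWAT libraries labelled Crtc1-/-. The groups overlapped fully, and the log2 fold change was -0.07 (SE 0.60, adjusted p = 0.939, edgeR). Its sign changed under several other settings, so no direction is drawn.

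Des, on chromosome 1 from 75360292 to 75368579 on the plus strand, encodes desmin, the intermediate filament of all muscle types. It read at 300 and 102 CPM in the eWAT libraries labelled Crtc1+/+ and at 92.9 and 55.5 CPM in the eWAT libraries labelled Crtc1-/-. In CPM the groups did not overlap, whereas after TMM scaling, which adjusts for library composition, they did. Its log2 fold change of -1.14 (SE 0.56) did not pass the test (adjusted p = 0.221, edgeR). With 1 library left out it ran from -1.68 to -0.21. Des shares 220 exonic bases with the antisense gene Gm15179.

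Myocd, on chromosome 11 from 65173608 to 65269989 on the minus strand, encodes myocardin, the SRF cofactor that drives the contractile programme. It read at 9.61 and 5.62 CPM in the eWAT libraries labelled Crtc1+/+ and at 1.41 and 0.624 CPM in the eWAT libraries labelled Crtc1-/-. Both libraries labelled Crtc1-/- were lower, and the log2 fold change of -2.62 (SE 0.68) did not pass the test (adjusted p = 0.069, edgeR). With all 8 libraries in 1 fit it did, as did Cnn1, and the members called in eWAT were then 4.

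Over the 10 members, the median log2 fold change in eWAT was -1.19, against -0.05 over all genes tested. Of the 10, 9 had a negative sign, where 48.5% of all genes tested had a positive one. Those 9 include Synpo2 at -0.07, for which no direction is drawn, and Acta2, whose sign turned without 1 library. In CPM, 6 members had both libraries labelled Crtc1-/- below both labelled Crtc1+/+ and 1 member, Smtn, had them above. Over all genes tested in eWAT the shares were 44.0% below and 21.1% above. After TMM scaling 5 members lay below and 1 above, beside 35.4% and 31.3% of all genes. Summed over the members, levels were 5866 and 3360 CPM in the eWAT libraries labelled Crtc1+/+ and 1513 and 841 CPM in the eWAT libraries labelled Crtc1-/-.

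**Figure D3:**
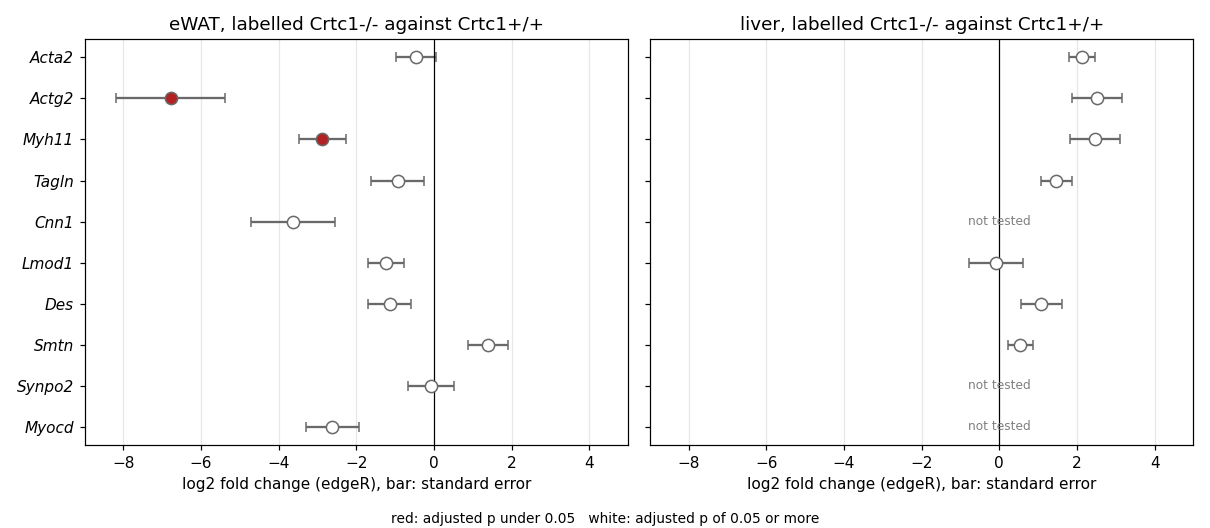
Log2 fold changes of the members, libraries labelled Crtc1-/- against Crtc1+/+, in eWAT (left) and liver (right), with standard errors from edgeR's quasi-likelihood fit. Red marks an adjusted p under 0.05, reached by Actg2 and Myh11 in eWAT; Cnn1, Synpo2 and Myocd had too few counts to be tested in liver.

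Within each group the members also kept different orders of level in FPKM. In eWAT labelled Crtc1+/+ Actg2 came first at a mean of 1615 FPKM, and its range did not overlap that of Acta2, the next, at 443.6 FPKM. Acta2, Tagln, Cnn1, Myh11 and Des followed with overlapping neighbours, from 443.6 down to 69.0 FPKM, and Synpo2 and Myocd came last, Synpo2 at 2.74 FPKM and Myocd at 1.26 and 0.74 FPKM in the libraries. In eWAT labelled Crtc1-/- Acta2 came first at 265 FPKM, followed by Tagln at 127 FPKM and Smtn at 46.8 FPKM. Des, Myh11, Cnn1 and Actg2 came after Smtn with overlapping neighbours, and Actg2 stood at 12.7 FPKM, in place 7 of 10.

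The promoters of the members were searched for CArG boxes, since SRF and Myocd act there. Windows from 250 bases before to 50 bases after the transcript start were held for 6 of the 10 members in the RefSeq table for GRCm38.p6, namely Acta2, Cnn1, Des, Lmod1, Smtn and Synpo2. The box was taken as CC, then 6 bases of A or T, then GG, a motif that reads the same on both strands. None of the 6 windows held it exactly, against 1.63% of the 32851 promoters of the table. A looser search, added after the strict one, allowed 1 of the 6 central bases to be G or C. It found 2 matches in Acta2 and none in the other members' windows, and 9.98% of all promoters held at least 1. The Acta2 matches ran from -84 to -75 and from -34 to -25 relative to the start used for its window. That start lies inside the gene span given above, as do those for Cnn1 and Synpo2, so bases before it overlap these spans. These letters are a description of the windows, and no match says only that the letters were not there.

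Below are the 250 bases upstream of the start for Acta2, which held the matches (capitals), and for comparison those of Cnn1 and Smtn, whose values in eWAT ran in opposite directions. Acta2 is from chr19:34255374-34255623 (minus strand), Cnn1 from chr9:22099003-22099252 (plus strand) and Smtn from chr11:3539293-3539542 (minus strand), all 5′ to 3′.
Acta2: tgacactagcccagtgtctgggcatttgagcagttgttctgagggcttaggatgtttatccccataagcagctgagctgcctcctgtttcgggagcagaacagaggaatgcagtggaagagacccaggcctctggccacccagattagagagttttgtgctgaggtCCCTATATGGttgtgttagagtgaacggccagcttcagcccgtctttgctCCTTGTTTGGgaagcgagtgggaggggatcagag
Cnn1: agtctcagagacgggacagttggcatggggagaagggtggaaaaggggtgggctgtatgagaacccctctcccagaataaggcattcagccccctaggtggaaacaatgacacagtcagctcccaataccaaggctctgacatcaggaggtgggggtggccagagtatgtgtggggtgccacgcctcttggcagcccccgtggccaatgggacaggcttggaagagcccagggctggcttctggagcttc
Smtn: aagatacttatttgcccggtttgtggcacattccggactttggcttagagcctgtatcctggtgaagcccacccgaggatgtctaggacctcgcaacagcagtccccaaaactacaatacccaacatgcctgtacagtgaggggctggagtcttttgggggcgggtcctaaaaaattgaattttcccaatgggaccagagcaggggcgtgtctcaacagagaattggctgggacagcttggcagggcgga

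In liver the members were scarce, and the same contrast was made there. Some, such as Myocd, were near the limit of detection, whereas Des, Smtn, Acta2 and Tagln lay well above it. The floor of 3 counts corresponded to 0.152 to 0.181 CPM, and such limits cover counting error only. Acta2 read at 1.67 and 1.94 CPM in libraries labelled Crtc1+/+ and at 7.99 and 8.39 CPM in libraries labelled Crtc1-/-. The groups were well apart and the libraries within each agreed closely. The log2 fold change was 2.12 (SE 0.34) with an adjusted p of 0.0668 in edgeR's quasi-likelihood test, just short of the threshold, and DESeq2 called it.

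Tagln read at 1.41 and 2.25 CPM in the liver libraries labelled Crtc1+/+ and at 4.60 and 5.96 CPM in the liver libraries labelled Crtc1-/- (log2 fold change 1.47, SE 0.40, adjusted p = 0.159, edgeR). Myh11 read at 0.152 and 0.818 CPM against 2.26 and 3.38 CPM (log2 fold change 2.46, SE 0.65, adjusted p = 0.154, edgeR). Both genes had every library labelled Crtc1-/- above every library labelled Crtc1+/+. Actg2 read at 0.152 and 0.460 CPM against 2.47 and 1.21 CPM (log2 fold change 2.52, SE 0.65, adjusted p = 0.147, edgeR). With 1 liver library left out, the log2 fold change ran from 1.695 to 4.09 for Myh11 and from 1.89 to 3.50 for Actg2. Actg2 entered the test only through the libraries labelled Crtc1-/-, since neither library labelled Crtc1+/+ reached the filter's cutoff of 0.518 CPM, and Myh11 reached it in 1 of 2.

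Smtn read at 5.07 and 3.68 CPM in the liver libraries labelled Crtc1+/+ and at 5.78 and 7.49 CPM in the liver libraries labelled Crtc1-/- (log2 fold change 0.54, SE 0.33, adjusted p = 0.414, edgeR). Lmod1 was at 0.254 and 0.562 CPM against 0.210 and 0.604 CPM, with overlapping groups. Cnn1, Synpo2 and Myocd were not tested in liver. Cnn1 read at 0.101 and 0.307 CPM against 0.631 and 0.423 CPM, and Synpo2 at 0.406 and 0 CPM against 0.263 and 0.302 CPM. For Myocd, 3 of the 4 liver libraries had no read and the other had 1.

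Des had the highest mean FPKM of the members in both liver groups, and differed between the libraries labelled Crtc1+/+. It read at 17.1 and 3.83 CPM in the liver libraries labelled Crtc1+/+ and at 22.8 and 23.1 CPM in the liver libraries labelled Crtc1-/-. The second Crtc1+/+ library was low and the other 3 were close together. The log2 fold change was 1.08 (SE 0.53, adjusted p = 0.326, edgeR), 0.36 without that library and 2.501 without the first Crtc1+/+ library. A list of 8 skeletal muscle genes, led by Acta1, Ckm and Myh4, was likewise low in that library, with 507 and 9.30 CPM in libraries labelled Crtc1+/+ and 643 and 475 CPM in libraries labelled Crtc1-/-. Its part in the Des values was not tested.

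Among the 7 members tested in liver none was called at an adjusted p under 0.05 by edgeR, where 0.0854% of the 11707 genes tested were called. At an unadjusted p under 0.05 there were 4 higher and 0 lower, beside 9.73% and 7.60% of all genes, and DESeq2 called 1, beside 2.66%. At the threshold the study used, which asks for a log2 fold change beyond 1 in size and an unadjusted p below 0.01, 4 of the 7 were higher (Acta2, Actg2, Myh11 and Tagln), beside 2.84% of all genes. With no overlap in CPM, 6 of the 7 were higher and 0 lower, beside 28.4% and 23.0% of all genes. The median log2 fold change of the 7 was 1.47, against 0.00 over all genes. Actg2 passed the filter through the group where it was high, so these counts are a description only. With 1 liver library labelled Crtc1-/- left out, the spread comes from the other group alone, so calls gained in such fits are not read as results. The log2 fold change of Acta2 was then 2.14 without the first and 2.10 without the second.

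Other marker lists read higher in the liver libraries labelled Crtc1-/- as well. The 6 fibroblast genes, with Dcn, Col3a1 and Col1a1 the most abundant, summed to 62.5 and 81.7 CPM in libraries labelled Crtc1+/+ and to 111 and 230 CPM in libraries labelled Crtc1-/-. The 7 endothelial genes summed to 40.2 and 33.3 CPM against 54.3 and 59.1 CPM, the 6 stellate cell genes to 152 and 142 CPM against 192 and 350 CPM, and the 7 pericyte genes to 13.1 and 15.2 CPM against 22.1 and 28.5 CPM. Epididymis genes summed to 2.18 and 1.89 CPM against 83.9 and 11.8 CPM, with 0 of the 22 absent from the first library labelled Crtc1-/- and 12 and 10 absent from the libraries labelled Crtc1+/+. None of these lists had a gene called in liver, where 0.0854% of all genes were. Only 3 of the 22 epididymis genes, 5 of the 7 pericyte genes and 5 of the 6 stellate cell genes could be tested there. The part of these lists in the members' values was not tested.

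The tissues were compared next. In mice labelled Crtc1+/+, all 10 members were higher in eWAT than in liver (adjusted p under 0.05, edgeR's quasi-likelihood test over all 8 libraries), where 35.0% of 15587 genes were higher and 19.8% lower. The median over the members was 7.12 on the log2 scale, beside 0.61 over all genes. Acta2 was 7.81 higher on that scale, Actg2 11.16, Myh11 8.996, Cnn1 8.74 and Tagln 6.43. Des and Smtn differed least, by 2.87 and 2.59, and Des was not called without the second liver library (2.15, adjusted p = 0.0603, edgeR) or without the first eWAT library of that label (1.905, adjusted p = 0.0778). For Myocd, with 0 reads in both liver libraries of that genotype, the eWAT level was at least 49.9-fold higher in CPM than the floor of 3 counts per library, and with Myocd set at its TMM-scaled bound of 18.9-fold the members' median was 5.93.

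In mice labelled Crtc1-/-, 7 of the 10 members were called higher in eWAT, beside 18.9% of all genes higher and 8.89% lower, and the median was 3.73 against 0.20. Acta2 was 5.14 higher (adjusted p = 0.000895, edgeR), Smtn 3.33 higher and Lmod1 4.18 higher. Actg2 was not called, at a log2 fold change of 1.69 (SE 1.02, adjusted p = 0.232, edgeR), and the second eWAT library labelled Crtc1-/- at 1.815 CPM lay below the 2.47 CPM of the first liver library with that label. Without the first eWAT library labelled Crtc1-/- the difference of Actg2 was -0.90, and without the second it was 2.55. Des was not called either (0.54, adjusted p = 0.567, edgeR), nor was Myocd, whose 37 reads in eWAT against 1 in liver made a ratio of 36.4 with a 95% counting interval from 6.15 to 1480. With the first or the second liver library labelled Crtc1-/- left out, only Acta2, Lmod1 and Smtn were called.

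The interaction of tissue and genotype asked whether the genotype difference differed between eWAT and liver. In all, 2 members were called, both lower in eWAT, beside 3.16% of all genes lower and 3.78% higher. For Actg2 the difference of the log2 fold changes was -9.47 (SE 1.66, adjusted p = 0.0226, edgeR's quasi-likelihood test), and for Myh11 it was -5.45 (SE 1.05, adjusted p = 0.0298). Acta2 followed at -2.67 (SE 0.62, adjusted p = 0.0501), Cnn1 at -5.09 (0.0952), Tagln at -2.53 (0.113) and Des at -2.33 (0.192), all by edgeR. Smtn was at 0.74 and Synpo2 at -0.55, with standard errors of 0.61 and 1.47. Without any 1 of the liver libraries, or of the eWAT libraries labelled Crtc1+/+, neither Actg2 (-10.48 to -8.82, adjusted p = 0.0562 to 0.112, edgeR) nor Myh11 (-7.11 to -4.64, 0.0545 to 0.103) was called, with differences that stayed large. The fit took the tissues as independent, although they came from the same mice. With genotype and number as a block, which holds only if equal numbers mark 1 mouse, Actg2 was called (-10.29, adjusted p = 0.0356, edgeR), as was Des (-2.49, 0.0378), and Myh11 was not (-5.49, 0.0804). Without the first eWAT library labelled Crtc1-/- 5 members were called, namely Acta2, Actg2, Myh11, Tagln and Cnn1.

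Genes outside the list that take part in smooth muscle contraction were grouped by role. Of 66 such genes, 65 were tested in eWAT, and 6 passed the adjusted threshold in edgeR, 3 of them lower and 3 higher, a share no larger than the 12.2% of all genes called there in either direction. In the myosin light chain kinase and phosphatase group, Mylk, the kinase that activates smooth muscle myosin, read at 530 and 312 CPM in the eWAT libraries labelled Crtc1+/+ and at 103 and 73.4 CPM in the eWAT libraries labelled Crtc1-/-. The groups did not overlap, and its log2 fold change of -1.95 passed the test (adjusted p = 0.0399, edgeR). The other 8 genes of that group did not pass.

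Calcium handling and ion channels gave the most uniform signs. All 10 genes had a negative log2 fold change in eWAT, with a median of -0.73, and 2 were called. Kcnma1, the pore of the large-conductance potassium channel, was at 8.14 and 10.8 CPM against 0.811 and 0.454 CPM (log2 fold change -3.61, adjusted p = 0.0309, edgeR). Ano1, a calcium-activated chloride channel, was at 37.5 and 68.6 CPM against 7.73 and 2.78 CPM (log2 fold change -3.08, adjusted p = 0.0399, edgeR). Both had libraries labelled Crtc1-/- lower throughout. Atp2a2, a calcium pump, and Itpr1, a calcium release channel, were the most abundant of the role and did not pass.

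In the other roles, calls were few. Of the 20 filament and cytoskeleton genes only Cnn3, a calponin of non-muscle cells, was called, higher at 175 and 133 CPM in the eWAT libraries labelled Crtc1-/- against 68.3 and 57.6 CPM (log2 fold change 1.59, adjusted p = 0.0305, edgeR). Myl6 and Tln1, the most abundant of that role, did not pass. In adhesion and elastic matrix, Itga7, an integrin of muscle, read at 17.9 and 16.4 CPM in the eWAT libraries labelled Crtc1+/+ and at 308 and 97.1 CPM in the eWAT libraries labelled Crtc1-/- (log2 fold change 3.82, adjusted p = 0.0256, edgeR). Eln, elastin, read at 337 and 217 CPM against 2727 and 939 CPM (log2 fold change 2.98, adjusted p = 0.0453, edgeR). Neither SRF and its cofactors (0 of 6 called, Srf at 0.95 and Mkl2 at 0.61 on the log2 scale) nor the receptors and second messengers (0 of 13, Agtr1a at 2.42 and Avpr1a at 1.39) had a call. At an unadjusted p under 0.05, 12 of the 65 were higher and 12 lower, where 16.2% and 17.1% of all genes were, and DESeq2 called 22, of which 10 were higher, where it called 30.0% of all genes.

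**Figure D4:**
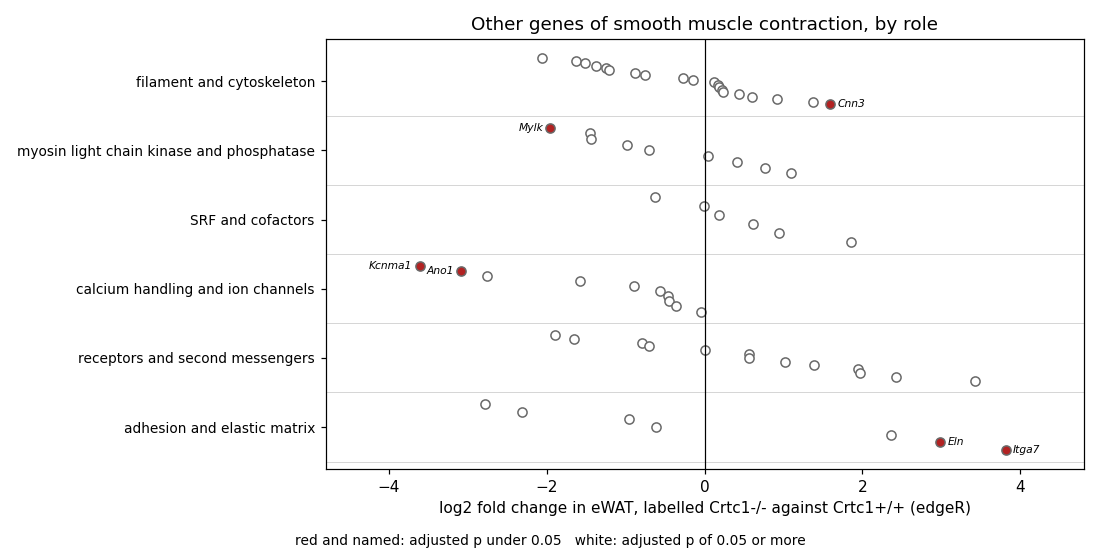
Log2 fold changes in eWAT, libraries labelled Crtc1-/- against Crtc1+/+, of other genes of smooth muscle contraction by role; red marks an adjusted p under 0.05 in edgeR. All 10 calcium handling and ion channel genes lie below 0, and the 6 called genes are named.

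In liver, none of the 48 companion genes tested was called by edgeR or by DESeq2, with 10 higher and 4 lower at an unadjusted p under 0.05, beside 9.73% and 7.60% of all genes. In the tissue comparison 41 of 65 were higher in eWAT and 5 lower in mice labelled Crtc1+/+, and 28 and 1 in mice labelled Crtc1-/-, beside 35.0% and 19.8%, and 18.9% and 8.89%, of all genes. Oxtr, the oxytocin receptor, was among the largest, with 31.5 and 63.2 CPM in the eWAT libraries labelled Crtc1+/+, 16.6 and 5.05 CPM in the eWAT libraries labelled Crtc1-/- and at most 0.0526 CPM in liver. Pgm5, Cacna1h, Kcnmb1, Sgcd and Eln were also called higher in eWAT than in liver in 1 or both genotypes.

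Lists of other cell types were summed beside the contractile genes in eWAT. The 7 pericyte genes, Pdgfrb, Notch3 and Rgs5 among them, summed to 148 and 159 CPM in the eWAT libraries labelled Crtc1+/+ and to 519 and 238 CPM in the eWAT libraries labelled Crtc1-/-, all 7 with a positive sign and 1 called higher. The 7 endothelial genes, led by Pecam1, Cdh5 and Tie1, summed to 271 and 284 CPM against 3988 and 2360 CPM, and 7 of 7 were called higher by edgeR. The fibroblast list summed to 2962 and 1943 CPM against 4951 and 1364 CPM, with overlapping groups. Of its 6 genes, 5 had a positive sign, 1 was called higher and 1 lower. The mesothelial list summed to 23.0 and 10.7 CPM against 39.7 and 24.4 CPM. The cardiac muscle list summed to 49.5 and 40.6 CPM against 8.92 and 11.9 CPM, a difference carried by Tnnt2 (35.2 and 32.5 CPM against 1.89 and 0.170 CPM, called lower), while Actc1 overlapped (14.0 and 8.004 CPM against 6.21 and 11.4 CPM). The skeletal muscle list summed to 545 and 325 CPM against 993 and 725 CPM. Of its 8 genes Acta1 was called higher (199 and 96.7 CPM against 817 and 427 CPM), Ckm and Myh4 overlapped between the groups, and the median log2 fold change was 0.15. The stellate cell list summed to 239 and 182 CPM against 152 and 195 CPM, most of it Ecm1 (225 and 170 against 134 and 166 CPM). Of its 5 genes tested, 4 had a positive sign and 0 were called, with a median log2 fold change of 0.88. Adipocyte genes were called higher for 7 of 10 and epididymis genes lower for 21 of 22, with 9 and 8 of the 22 at 0 in the libraries labelled Crtc1-/-. The parts of these cell types in the members' values were not tested.

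**Figure D5:**
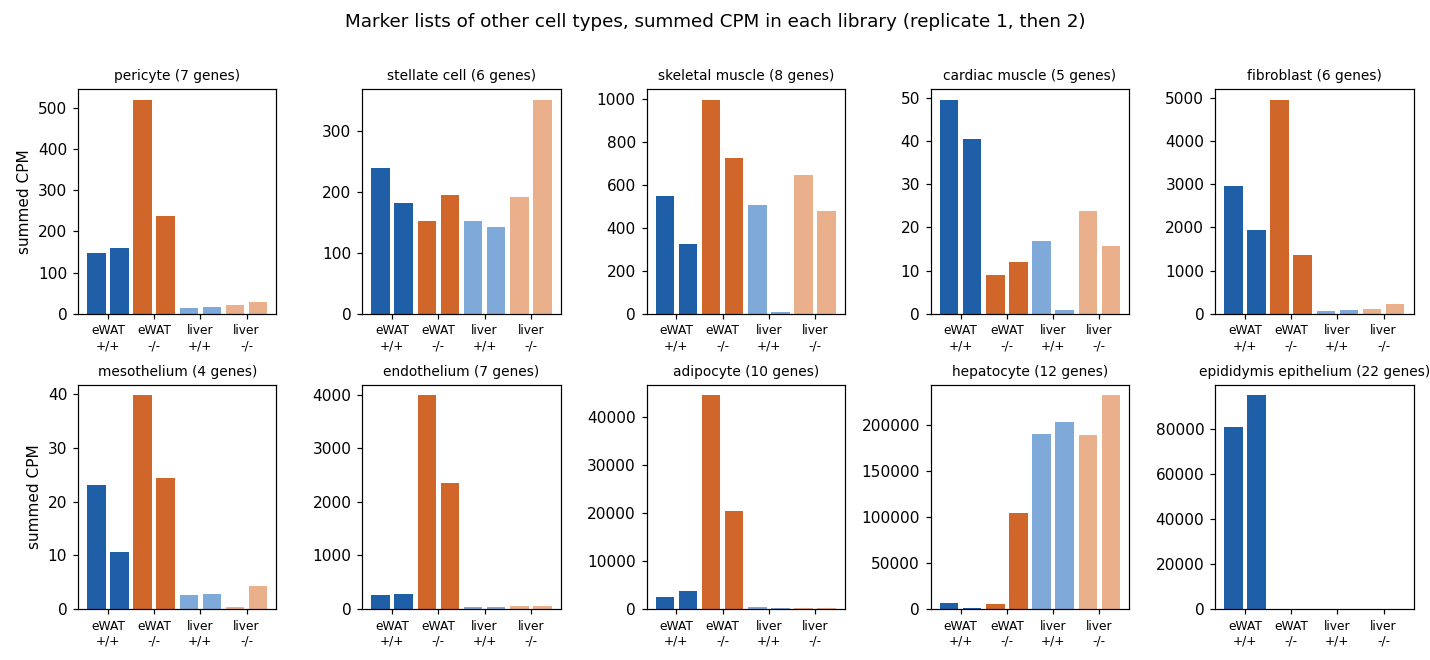
Summed CPM of 10 marker lists of other cell types in each library, with a separate axis for each list; the bars of a group are replicate 1, then 2. Epididymis genes reach 80750 and 94670 CPM in the eWAT libraries labelled Crtc1+/+ and 37.3 and 13.4 CPM in the eWAT libraries labelled Crtc1-/-, and adipocyte and endothelial genes are higher in the latter.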

How the data were processed

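RNA-seq libraries of liver and eWAT were analysed, 2 libraries in each of 4 groups taken from the sample labels. By the study's methods 2 mice of each genotype gave both tissues, and the fits across tissues took the libraries as independent. For 19348 genes the authors deposited estimated counts, not normalized, and FPKM, in which fragments are scaled to gene length and library size; 458 genes had no count. The submitters' processing notes name HISAT, Bowtie2 and the build GRCm38.p6, and the counting tool and annotation are not given in the sources used here. Of the values, 5.44% to 9.98% in a library were not whole, as happens where reads are divided between genes, and counts were rounded. The tables held 0 columns of unmapped samples.

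Levels (CPM) are counts scaled to the library total. Genotype groups are those of the labels. Within each tissue, genes passing filterByExpr (minimum count 10) were scaled by TMM and compared by the quasi-likelihood test of edgeR 4.0.16 (R 4.3.3), with Benjamini-Hochberg adjusted p-values taken across the whole table, and the tissues and the interaction were tested in 1 fit of all 8 libraries. Standard errors were derived from the F statistic. The study tested with limma on normalized values, which was run as an alternative (limma 3.58.1) on quantile-normalized log2(FPKM + 1) and log2(FPKM + 0.1), beside DESeq2 1.42.0, upper-quartile, library-size and RLE scaling, no filter, a mean count of at least 50, removal of epididymis and hepatocyte genes, a replicate block, all 8 libraries in 1 fit and each library left out. Figures used matplotlib 3.10.9 and pandas 2.3.3 (Python 3.11.15), and coding sequences were aligned with Biopython 1.88. The test script was tested on simulated data.

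The members and gene lists were chosen with earlier results of these data known. Named individually were Crtc1, the 10 members, per role of the 66 companion genes the 2 most abundant and, in each comparison, the 2 called with the largest change, up to 3 genes of a marker list, and the 8 genes with the pattern most like the members. Marker lists of 10 cell types were summed. The libraries held 16560085 to 19721481 counts. With 2 libraries a group the p-values rest on the spread between these mice. Positions and promoters are from GENCODE and RefSeq for GRCm38.p6, and promoters matched 6 of the 10 members.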

Additional observations from a re-analysis of the deposited data

Results flagged for a closer look

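For 2 members the difference between libraries labelled Crtc1-/- and Crtc1+/+ itself differed between eWAT and liver, by the interaction term in edgeR's quasi-likelihood test. Actg2 had a difference of -9.47 on the log2 scale, from -6.78 in eWAT and 2.52 in liver in the separate fits, and Myh11 had -5.45, from -2.88 in eWAT and 2.46 in liver. In liver Actg2 rested on 3 and 9 reads in the libraries labelled Crtc1+/+, and the eWAT libraries of that label carried 8.07% and 9.47% of their counts in epididymis genes, whose part was not tested. Without any 1 of the 4 liver libraries or the 2 eWAT libraries labelled Crtc1+/+ neither was called, at differences of -10.48 to -8.82 for Actg2 and -7.11 to -4.64 for Myh11.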

How the results depend on the processing

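In eWAT the 2 members called were 6 with DESeq2, 4 with all 8 libraries in 1 fit and 0 to 3 with 1 library left out (0 without either library labelled Crtc1+/+, 3 without the first labelled Crtc1-/-, 1 without the second). At the study's threshold they were 2, against 4 with DESeq2 and 0 to 3 with 1 library left out, and the 6 companions called were 22, 10 with limma on log2(FPKM + 1), 16 in 1 fit and 0 to 14. In liver the 0 members called were 1 with DESeq2, 3 without the filter and 0 to 4 with 1 library left out, the 4 at the study's threshold were 2 at a mean count of at least 50, 1 with limma on log2(FPKM + 1), 1 in 1 fit and 2 to 4, and the 0 companions were 0 to 9. Between the tissues labelled Crtc1-/- the 7 members were 3 to 9 with 1 library left out, and the 29 companions were 45 with library-size scaling, 17 and 19 with limma (pseudocounts 1 and 0.1) and 10 to 37. In the interaction the 2 members were 4 with DESeq2 and 0 to 5 with 1 library left out, and the 3 companions were 12, 10 and 9 with DESeq2 and the limma fits and 0 to 11.

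Signs turned for Synpo2 in eWAT (0.0563 without the filter, 0.6944 and 0.9761 with limma, 0.03246 with markers removed, -0.5864 to 0.8261 with 1 library left out) and in the interaction (0.4982 and 0.7487 with limma, -6.327 to 0.4368 with 1 library left out). With 1 library left out Acta2 in eWAT ran from -0.8918 to 0.2339 and Lmod1 in liver from -0.9751 to 0.5881. In the tissue comparison of libraries labelled Crtc1-/-, limma on log2(FPKM + 1) put Myocd at -7.914e-05, and Actg2 ran from -0.9049 to 2.548 with 1 library left out. The causes were not tested. Library-size scaling moved the median of all genes in eWAT from -0.05 to -0.35 and that of the members from -1.19 to -1.48.

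Deviations of same-numbered libraries from their group means correlated at 0.0138 between genotypes in eWAT and 0.0737 in liver, and between eWAT and liver at 0.0375 (labelled Crtc1-/-) and 0.161 (Crtc1+/+), so the numbers were not taken to pair libraries, although the tissues share mice. With the replicate block, members called in eWAT were 0 (4 at the study's threshold) and companions 0, members called in liver were 1, companions in the interaction were 5, Myh11 lost its call between the tissues labelled Crtc1-/- (3.54, adjusted p = 0.0507, edgeR), and Synpo2 in eWAT was 0.03906.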

Other observations

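The genes whose log2 CPM over the 8 libraries was most like the mean of the members were 4430402I18Rik, Mllt11, Apod, Meis2, Mapk11, Crip1, Capg and Naca (Pearson r of 0.994 to 0.997, over 8 libraries of 2 tissues, so the correlations mostly carry the difference between tissues and no test is given). Crip1, a small LIM-domain protein, read at 1816 and 1653 CPM in the eWAT libraries labelled Crtc1+/+, at 375 and 97.7 CPM in the eWAT libraries labelled Crtc1-/-, and at 1.99 to 6.64 CPM in liver. Apod, apolipoprotein D, read at 238 and 163 CPM, at 51.1 and 22.2 CPM, and at most at 0.483 CPM in liver. The members' own correlations with their mean ranged from 0.898 for Smtn to 0.992 for Tagln.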
